A study of Mus musculus with 9 samples.

Results

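A set of 7 genes that help to place immune cells in the spleen was followed by symbol across splenic type 2 dendritic cells (DC2): the oxysterol receptor *Gpr183*, the sphingosine-1-phosphate (S1P) receptors *S1pr1*, *S1pr3* and *S1pr4*, the lymphotoxin ligands *Lta* and *Ltb* and their receptor *Ltbr*. The set is 7 of 24054 genes in the deposited files, and all 7 were among the 14452 genes tested. The 9 bulk RNA libraries came from C57BL/6 mice homozygous for both Clec9a-Cre and Rosa-tdTomato, in which the fluorescent protein TOMATO marks cells that expressed *Clec9a*, or descend from cells that did. The groups, of 3 libraries each, were TOM+ cDC2 and TOM- DC2 at postnatal day 8 (young mice) and TOM+ cDC2 of adults, aged 9 weeks for 1 library and 8 weeks for the others. All mice carried Cre on both *Clec9a* alleles, the cells were sorted as CD11c+ MHCII+ CD11b+, spleens of young mice were pooled, and no adult TOM- group was among these libraries. Libraries are named by the number in their file label (81, 91 and 92 in both young groups; 91, 92 and 95 in adults).

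GPR183 is a G protein-coupled receptor for 7α,25-dihydroxycholesterol, made by stromal cells, and it guides CD4+ cDC2 to the bridging channels and the edge of the marginal zone. Lymphotoxin α and β form a membrane-bound heterotrimer on lymphocytes and other cells. It engages LTβR on stromal and myeloid cells and, through NIK and RelB, keeps up splenic compartments and the homeostasis of cDC2. S1P receptors read the gradient of S1P between blood and tissue: S1PR1 drives egress, S1PR3 acts in marginal zone placement, and S1PR4 is expressed mainly in haematopoietic cells.

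Libraries held 12783252 to 22809401 reads counted on genes. The 8 cDC2 markers (*Sirpa*, *Itgam*, *Itgax*, *Irf4*, *H2-Ab1*, *Cd74*, *Flt3* and *Zbtb46*) were detected in every library, with summed levels of 58454 to 65658 TPM in young and 92148 to 95114 TPM in adult libraries. Most of each sum was *Cd74* and *H2-Ab1*. In each young group, *Sirpa* and *Itgam* passed the test below as higher than in adults, and 5 of the 8 as lower. The shares of all tested genes were 21.0% higher and 19.5% lower for TOM+ cDC2, and 19.4% and 16.9% for TOM- DC2. TPM, the authors' values from RSEM, is a transcript's share of its library after correction for length, and ± after a level is the SD of 3 libraries. Among markers of other cells, erythroid markers reached 451.7 TPM in library 81 of young TOM- DC2 and at most 36.7 TPM elsewhere, and neutrophil markers 14.0 TPM there against at most 0.94 TPM elsewhere. Without both young libraries numbered 81 the same members passed the test in each comparison.

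On the TPM scale the members spanned more than 3 orders of level. *Ltb* was highest in each group, followed by *Gpr183*, *Ltbr*, *Lta* and *S1pr4*, and no library of one of these genes overlapped the next gene in the order within a group. *Ltb* stood at percentile 97.3 to 98.8 of all tested genes by mean TPM, and *Gpr183* at 91.6 to 95.4. *S1pr1* and *S1pr3* lay at the bottom: their libraries overlapped in young TOM+ cDC2 and in adults, but not in young TOM- DC2.

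**Figure D1:**
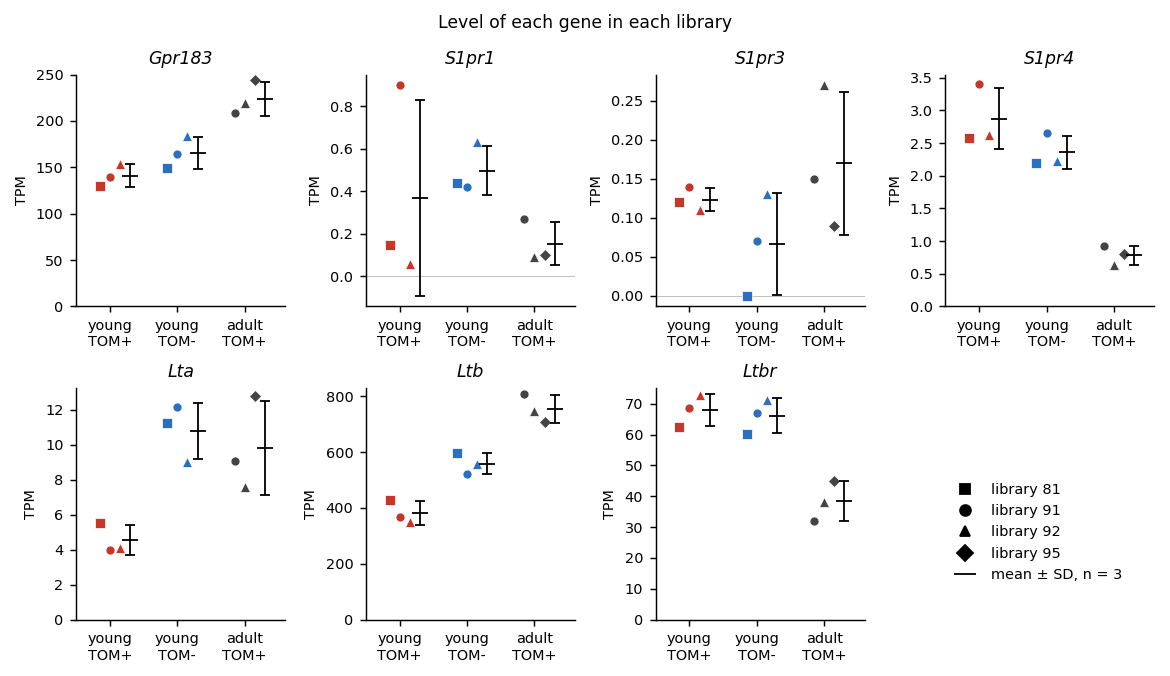
Level (TPM, linear axes, each panel with its own scale) of the 7 genes in each of 9 libraries, with symbols for the library number and bars for mean ± SD (n = 3). Both young groups sit below the adults for Gpr183 and Ltb and above them for S1pr4 and Ltbr, while Lta is low in young TOM+ cDC2 alone (3.97 to 5.54 TPM).

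Differences were tested on counts with edgeR's quasi-likelihood test over all 14452 genes, adjusted by Benjamini-Hochberg (padj). A gene passed the test at a padj under 0.05, and was called where its log2 fold change (log2FC) also lay beyond 1. Between young TOM+ cDC2 and young TOM- DC2, which asks whether the Clec9a history of cells of one age goes with a difference, 2 of 7 members passed and both were lower in TOM+ cDC2, beside 1.60% of all tested genes in either direction and 1.47% lower. One of them, *Lta*, was called, beside 1.18% of genes. Between young and adult TOM+ cDC2, which asks about age, 5 of 7 passed, beside 40.6% of genes, and 3 were called, beside 12.8%. Between young TOM- DC2 and adult TOM+ cDC2, 4 of 7 passed, beside 36.3%, and 1 was called, beside 11.3%. Both comparisons with adults use the same 3 adult libraries, so they are given side by side. In bulk libraries, fewer cells that express a gene and less RNA of it per cell cannot be told apart.

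**Figure D2:**
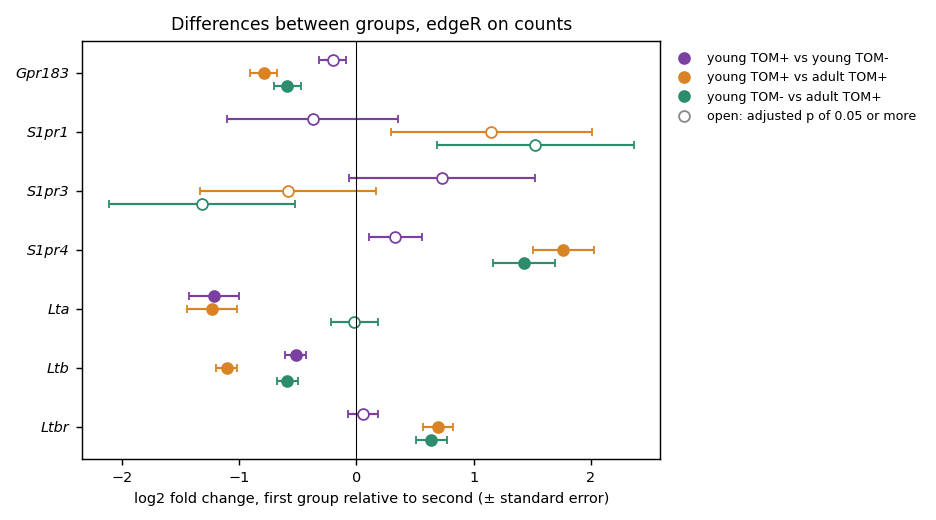
Log2 fold change of each gene (first group relative to second, ± standard error) in the 3 comparisons, from edgeR on counts. Filled points passed an adjusted p of 0.05. Lta is near -1.2 against both young TOM- DC2 and adults, whereas Gpr183, S1pr4 and Ltbr differ from adults alone among the tests passed.

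The lymphotoxin genes *Lta* and *Ltb* lie together in the major histocompatibility complex on chromosome 17 (GRCm38, *Ltb* 35194439 to 35196320 on the plus strand, *Lta* 35203165 to 35205351 on the minus strand), with *Tnf* between them. The gaps are 3060 bases from *Ltb* to *Tnf* and 1157 bases from *Tnf* to *Lta*. Because *Lta*, *Ltb* and *Gpr183* were the members lower in young than in adult TOM+ cDC2, the 250 bases before their RefSeq starts (GRCm38.p6) are shown 5′ to 3′ on each gene's strand. The windows are chr17:35194257-35194506 (plus) for *Ltb*, chr17:35205352-35205601 (minus) for *Lta* and chr14:121965194-121965443 (minus) for *Gpr183*, and capitals mark matches to any of 3 motifs.
Ltb: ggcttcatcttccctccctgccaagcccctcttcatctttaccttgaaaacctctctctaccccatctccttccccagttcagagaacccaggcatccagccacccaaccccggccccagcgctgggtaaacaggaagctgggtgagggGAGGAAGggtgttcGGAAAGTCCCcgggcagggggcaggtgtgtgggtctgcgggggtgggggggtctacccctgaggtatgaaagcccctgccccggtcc
Lta: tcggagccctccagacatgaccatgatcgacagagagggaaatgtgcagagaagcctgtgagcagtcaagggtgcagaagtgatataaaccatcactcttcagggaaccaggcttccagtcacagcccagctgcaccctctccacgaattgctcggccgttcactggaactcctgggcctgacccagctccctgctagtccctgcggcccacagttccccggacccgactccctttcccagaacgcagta
Gpr183: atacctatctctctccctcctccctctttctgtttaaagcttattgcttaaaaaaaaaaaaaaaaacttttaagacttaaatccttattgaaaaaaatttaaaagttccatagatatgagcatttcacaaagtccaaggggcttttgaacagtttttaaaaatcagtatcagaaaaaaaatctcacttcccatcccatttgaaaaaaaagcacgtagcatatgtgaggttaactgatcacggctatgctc
The motifs, searched on both strands, were the NF-κB consensus, the PU.1 core GAGGAAG and the GC box GGGCGG. No matches overlapped. In the *Ltb* window a PU.1 core began 101 bases and an NF-κB consensus 87 bases before the RefSeq start. That start lies inside the *Ltb* span given above, so the window overlaps that span in part. These motifs were found in 10.6% and 7.25% of 32851 windows of this length. None of the 3 motifs was found in the *Lta*, *Gpr183* or *S1pr4* windows. The *Gpr183* window is 32.0% G and C, against 63.2% for *Ltb* and 58.4% for *Lta*. The *Ltbr* window, 69.2% G and C, held 2 GC boxes and that of *S1pr3* 1, a motif present in 32.7% of windows. The table holds no entry for *S1pr1*.

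*Lta* encodes lymphotoxin α, which is secreted as a homotrimer or joins lymphotoxin β at the membrane. It measured 5.54, 3.97 and 4.11 TPM in libraries 81, 91 and 92 of young TOM+ cDC2, and 11.2, 12.1 and 9.03 TPM in the same libraries of young TOM- DC2. In adults it measured 9.06, 7.58 and 12.8 TPM in libraries 91, 92 and 95. All young TOM+ libraries were thus below all others, and the libraries of TOM- DC2 and adults overlapped. The counts behind these levels were 54 to 86, 129 to 177 and 78 to 174 reads per library. *Lta* was lower in young TOM+ cDC2 than in TOM- DC2 by a log2FC of -1.21 ± 0.21 (standard error, edgeR padj = 0.0093), and lower than in adults by -1.23 ± 0.21 (padj = 0.00064). Between TOM- DC2 and adults the log2FC was -0.02 ± 0.20 (padj = 0.95). Within each pair of young libraries of one number, *Lta* was higher in TOM- DC2, by 2.03-, 3.06- and 2.20-fold on the TPM scale. Without library 91 of young TOM+ cDC2 the first of these differences no longer passed (log2FC -1.13, padj = 0.055), nor without library 92 (log2FC -1.18, padj = 0.063). Without adult library 95 the difference from adults was -0.99, short of the fold needed for a call (padj = 0.0033).

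*Ltb* encodes the membrane-anchoring subunit, and it was the most abundant member. It measured 428.6, 368.4 and 348.4 TPM in young TOM+ cDC2, 597.3, 521.7 and 556.2 TPM in young TOM- DC2 and 806.4, 746.4 and 709.2 TPM in adults. The 3 groups did not overlap, with young TOM+ cDC2 lowest and adults highest. *Ltb* was lower in young TOM+ than in TOM- cells by a log2FC of -0.52 ± 0.09 (padj = 0.0087) and lower than in adults by -1.11 ± 0.09 (padj = 2.3e-06). TOM- DC2 lay below adults by -0.59 ± 0.09 (padj = 0.00028). Within pairs of one number *Ltb* was 1.39-, 1.42- and 1.60-fold higher in TOM- DC2. The test between the young groups was not passed without library 91 of TOM+ cDC2 (log2FC -0.51, padj = 0.052) or without library 92 (log2FC -0.47, padj = 0.062).

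Within each pair of young libraries of one number, the summed markers of ILC3, T cells, B cells and monocytes and macrophages were higher in TOM- DC2. None of these sums was highest in adults. The summed level of 7 ILC3 markers was 4.59 to 5.28 TPM in young TOM+ cDC2, 10.6 to 11.5 TPM in TOM- DC2 and 5.65 to 7.86 TPM in adults. In TOM- DC2 *Il7r* was at 4.79 to 5.61 TPM and *Il1r1* at 3.57 to 4.15 TPM. *Il22* and *Il17a*, cytokines that define ILC3, were at 0 counts in all 9 libraries. *Il23r* was at 0 in young TOM+ cDC2, between 0.03 and 0.15 TPM in TOM- DC2 and between 0.06 and 0.22 TPM in adults. Of these markers, 1 of 5 tested passed between the young groups, *Il1r1*. It was higher in TOM- DC2, beside 1.47% of all tested genes. In young TOM+ cDC2, *Il23r* and *Rora* passed as lower than in adults (padj = 0.026 and 0.0016), beside 19.5% of all tested genes. *Il1r1* passed there as higher, beside 21.0%. In TOM- DC2, *Rora* passed as lower than in adults, beside 16.9%, and *Il1r1* and *Tox* as higher, beside 19.4%. The 6 T cell markers summed to 27.9 to 28.7, 39.1 to 40.6 and 21.9 to 32.0 TPM, most of it *Cd5*, and none of the 6 passed between the young groups. The 7 B cell markers summed to 61.0 to 71.1, 70.4 to 81.3 and 42.5 to 55.4 TPM, most of it *Cd79b*, with *Pax5* at 0.12 TPM or less in all libraries. Of 6 tested, 1 passed between the young groups, *Ms4a1*, which was higher in TOM- DC2, beside the same 1.47%. Against TOM- DC2, *Ms4a1* and *Cr2* were higher in adults (log2FC -1.29 ± 0.20 and -1.77 ± 0.40 for TOM- DC2 relative to adults, padj = 0.00031 and 0.0041), beside 16.9% of all tested genes. *Cd79b* passed as lower in adults than in TOM- DC2, beside 19.4%. The 8 markers of monocytes and macrophages summed to 285.4 to 312.9 TPM in young TOM+ cDC2, 362.4 to 390.2 TPM in TOM- DC2 and 224.0 to 288.4 TPM in adults. None of the 8 passed between the young groups, whereas *C1qc* and *Vcam1* passed as higher in TOM- DC2 with the replicate block, a fit that pairs the young libraries of one number. *C1qa*, *C1qb*, *C1qc* and *Mertk* passed as higher in TOM- DC2 than in adults, beside 19.4% of all tested genes. The part of these cell types in the lymphotoxin levels was not tested.

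**Figure D3:**
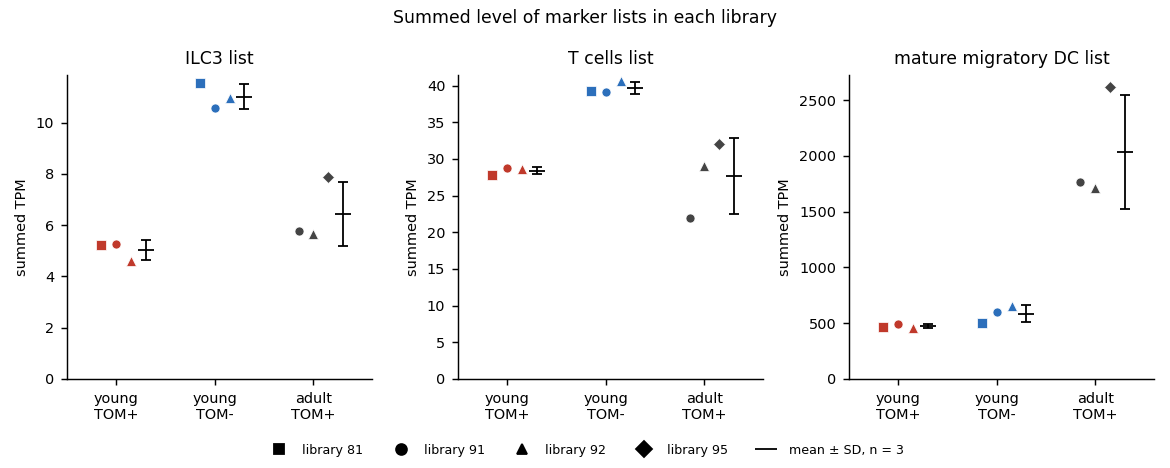
Summed TPM (linear axes) of the ILC3, T cell and mature migratory DC marker lists in each of 9 libraries, with bars for mean ± SD (n = 3). The ILC3 sum is 10.6 to 11.5 TPM in young TOM- DC2 and at most 7.86 TPM elsewhere, and the mature DC sum is 1714 to 2622 TPM in adults and at most 654.1 TPM in young libraries.

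*Tnf*, the gene between them, measured 87.3, 155.3 and 168.4 TPM in young TOM+ cDC2, 117.4, 244.9 and 252.1 TPM in TOM- DC2 and 152.4, 253.4 and 178.1 TPM in adults. Its groups overlapped, and no comparison passed (log2FC -0.55 ± 0.32 between the young groups, padj = 0.69). It was higher by 1.34- to 1.58-fold in TOM- DC2 within pairs of one number.

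The receptor gene *Ltbr* (chromosome 6, 125306571 to 125313885, minus strand) ran the other way with age. It measured 62.4, 68.5 and 72.8 TPM in young TOM+ cDC2, 60.1, 67.1 and 71.2 TPM in TOM- DC2 and 32.0, 38.1 and 45.0 TPM in adults. Every young library lay above every adult library, and the young groups overlapped. *Ltbr* was higher than in adults by a log2FC of 0.70 ± 0.13 in young TOM+ cDC2 (padj = 0.0011) and by 0.64 ± 0.13 in TOM- DC2 (padj = 0.0023). Between the young groups the log2FC was 0.06 ± 0.13 (padj = 0.96).

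The ligand and its receptor were also set against each other within each library. The ratio of *Ltb* to *Ltbr* TPM was 6.87, 5.38 and 4.79 in young TOM+ cDC2, 9.93, 7.77 and 7.81 in TOM- DC2 and 25.2, 19.6 and 15.7 in adults. The 3 groups did not overlap. An exact two-sided permutation test gave p = 0.1 for each pair of groups, the smallest p that 3 against 3 libraries allow (0.15 after adjustment over 6 ratio tests). The ratio of *Ltb* to *Lta* was 85.0 ± 7.71 in young TOM+ cDC2 and 52.6 ± 9.32 in TOM- DC2, without overlap (exact permutation p = 0.1, adjusted 0.15, n = 3). In adults it was 89.0, 98.5 and 55.4, and library 95 lay within the range of TOM- DC2.

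**Figure D4:**
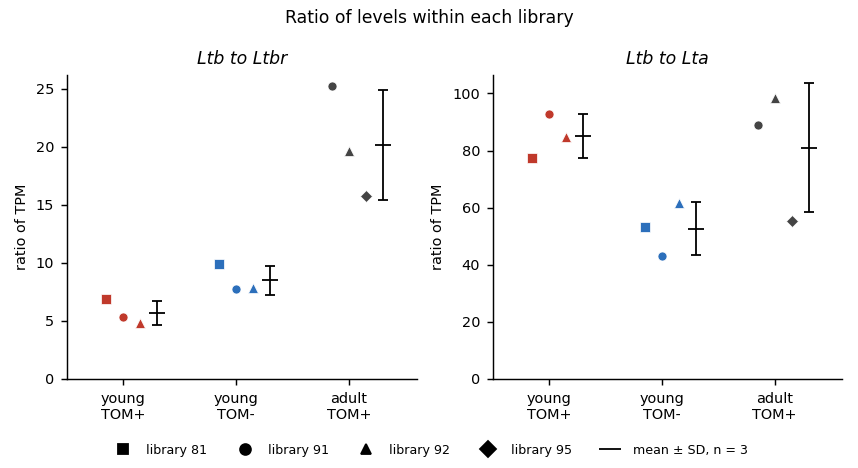
Ratio of Ltb to Ltbr TPM (left) and of Ltb to Lta TPM (right) in each of 9 libraries, linear axes from 0, with bars for mean ± SD (n = 3). The left ratio rises in steps without overlap from young TOM+ cDC2 (4.79 to 6.87) to adults (15.7 to 25.2). The right ratio has its lowest mean in young TOM- DC2, whose range overlaps that of adults.

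Genes of the LTβR pathway to non-canonical NF-κB were mostly lower in young cells. Of 8 listed genes, 7 passed as lower in young TOM+ cDC2 than in adults, beside 19.5% of all tested genes, with a median log2FC of -0.73 (all tested genes, 0.05). In TOM- DC2, 7 of 8 also passed as lower than in adults, beside 16.9%, with a median of -0.61 (all tested genes, 0.07). *Relb*, the transcription factor subunit at the end of this pathway, measured 190.5 to 227 TPM in young TOM+ cDC2, 169.3 to 196.9 TPM in TOM- DC2 and 438.7 to 542.1 TPM in adults (log2FC -1.37 ± 0.09 and -1.54 ± 0.09, padj = 5.0e-07 and 2.5e-07). *Birc3* and *Birc2*, which encode the ubiquitin ligases that hold NIK low, fell short of adults by log2FC -1.12 and -1.06 in young TOM+ cDC2 (padj = 6.7e-06 and 2.3e-05). *Traf3*, the adaptor that brings NIK to these ligases, was the gene that did not pass (-0.03 ± 0.08, padj = 0.79, and -0.09 ± 0.08, padj = 0.42). None of the 8 passed between the young groups. The same 7 genes passed in both comparisons with adults without the young libraries 81.

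Related ligands and receptors of the TNF family followed in part. Of 5 genes, 3 passed as lower in young TOM+ cDC2 than in adults, beside 19.5% of all tested genes: *Tnfsf14*, which encodes LIGHT, another ligand of LTβR (log2FC -1.07 ± 0.24, padj = 0.0041), *Tnfrsf14*, the LIGHT receptor HVEM (-1.07 ± 0.32, padj = 0.019), and *Tnfrsf1b*, TNF receptor 2 (-1.14 ± 0.14, padj = 5.8e-05). In TOM- DC2, *Tnfrsf14* and *Tnfrsf1b* passed as lower than in adults, beside 16.9% of all tested genes, and *Tnfsf14* was at -0.62 ± 0.24 (padj = 0.063). None of the 5 passed between the young groups.

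*Gpr183* (chromosome 14, 121952551 to 121965195, minus strand) lies inside the span of *Ubac2* on the opposite strand and shares no exon with it. It measured 129.7, 139.8 and 153.7 TPM in young TOM+ cDC2, 149.0, 164.5 and 183.4 TPM in TOM- DC2 and 208.4, 219.7 and 244.3 TPM in adults. The young groups overlapped, and all young libraries were below all adult libraries. *Gpr183* was lower than in adults by a log2FC of -0.79 ± 0.12 in young TOM+ cDC2 (padj = 0.00020) and by -0.59 ± 0.12 in TOM- DC2 (padj = 0.0018). Within pairs of one number it was 1.15-, 1.18- and 1.19-fold higher in TOM- DC2, but the difference between the young groups did not pass (-0.20 ± 0.12, padj = 0.68). Its counts were 3633 to 7391 reads per library.

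Among the 4 enzymes that make or break down GPR183 ligands, *Cyp27a1* and *Hsd3b7* passed as lower in both young groups than in adults, beside 19.5% of all tested genes for TOM+ cDC2 and 16.9% for TOM- DC2. *Cyp27a1*, the sterol 27-hydroxylase, measured 86.4 to 123.9 TPM in young TOM+ cDC2, 96.2 to 129.7 TPM in TOM- DC2 and 213.7 to 261.4 TPM in adults. Its log2FC were -1.31 ± 0.12 and -1.24 ± 0.12 (padj = 5.9e-06 and 1.2e-05). *Hsd3b7*, which degrades the ligand, was at -0.69 ± 0.11 and -0.81 ± 0.11 (padj = 0.00035 and 0.00014). *Cyp7b1*, the 7α-hydroxylase that completes the ligand, was low throughout at 0.51, 2.12 and 1.61 TPM in young TOM+ cDC2 and 0.17 to 0.57 TPM elsewhere (1.75 ± 0.64 against adults, padj = 0.047). *Ch25h*, which makes 25-hydroxycholesterol, stayed between 0.39 and 1.21 TPM in all libraries and passed in no comparison.

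Of the S1P receptors, *S1pr4* was the one that passed against adults. This single-exon gene (chromosome 10, 81497747 to 81500132, minus strand) measured 2.58, 3.41 and 2.62 TPM in young TOM+ cDC2, 2.20, 2.65 and 2.23 TPM in TOM- DC2 and 0.92, 0.63 and 0.80 TPM in adults. Every young library was above every adult one. The counts were 67 to 81, 43 to 72 and 11 to 18 reads per library. *S1pr4* was higher than in adults by a log2FC of 1.76 ± 0.26 in young TOM+ cDC2 (padj = 0.00020) and 1.43 ± 0.26 in TOM- DC2 (padj = 0.0012), or 3.39- and 2.70-fold. Between the young groups it differed by 0.33 ± 0.23 (padj = 0.77).

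*S1pr1* (chromosome 3, 115710433 to 115715072, minus strand) was close to the limit of detection. Its counts were 5, 27 and 3 in young TOM+ cDC2, 11, 12 and 25 in TOM- DC2 and 6, 2 and 3 in adults. TOM- DC2 lay above adults without overlap, at 0.42 to 0.63 TPM against 0.09 to 0.27 TPM, yet no comparison passed (log2FC 1.52 ± 0.84 for TOM- DC2 against adults, padj = 0.18). Library 91 of young TOM+ cDC2, with 0.90 TPM, also had 1.22 TPM of *Cd3e* and 2.77 TPM of *Cd3g*, T cell genes that were at most 0.24 and 0.26 TPM in the other libraries of that group. Library 91 of TOM- DC2 had 1.74 TPM of *Cd3e* and 0.97 TPM of *Cd3g*, with *S1pr1* at 0.42 TPM, the lowest of its group. Without library 91 of young TOM+ cDC2 the *S1pr1* log2FC of that group against adults turned from 1.15 to -0.52, and neither passed (padj = 0.31 and 0.63). The part of T cell RNA in these counts was not tested.

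*S1pr3* (chromosome 13, 51408639 to 51422797, plus strand) had 0 to 9 counts per library. It had 6 counts in each young TOM+ library, 0, 3 and 8 in TOM- DC2 and 5, 9 and 4 in adults. The 0 in library 81 of TOM- DC2 allows up to 0.21 CPM (counts scaled to library size), and the groups overlapped in all comparisons. No difference was detectable at this depth (padj of 0.22 to 0.90). Its exons overlap those of *Gm32834* on the other strand, and since counting ignored strand their reads cannot be told apart. Of the 2 further S1P receptors, *S1pr2* stayed between 2.14 and 4.88 TPM and passed in no comparison, and *S1pr5*, with 2 counts or fewer per library, was not tested.

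Genes that make, export and degrade S1P were listed as 10 genes. Against adults, 4 were higher and 1 lower in young TOM+ cDC2, and 6 were higher and 1 lower in TOM- DC2, beside 21.0% and 19.5% of all genes in the first case and 19.4% and 16.9% in the second. The median log2FC was 0.42 and 1.01. *Ppap2a* and *Ppap2c*, the older symbols of the lipid phosphatase genes *Plpp1* and *Plpp2*, were higher in both young groups. *Ppap2c* measured 10.1 to 13.0 TPM in young and 2.35 to 4.37 TPM in adult libraries (log2FC 1.66 ± 0.20 and 1.60 ± 0.20 against adults, padj = 4.8e-05 and 7.9e-05). *Ppap2a* measured 2.15 to 3.62, 3.23 to 4.59 and 0.44 to 0.78 TPM (2.62 ± 0.46 and 3.17 ± 0.45, padj = 0.00067 and 0.00017). *Sphk1*, an S1P-forming kinase, and *Spns2*, an S1P exporter, were called in TOM- DC2 against adults at 1.79 ± 0.58 (padj = 0.029) and 1.23 ± 0.26 (padj = 0.0027). *Sgpl1*, the S1P lyase, was the gene lower in both young groups, by -0.33 and -0.34 (padj = 0.0069 and 0.0072). None of the 10 passed between the young groups.

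*Klf2*, which encodes a transcription factor that drives *S1pr1* in lymphocytes, was lower in young cells while *S1pr1* stayed near detection. It measured 136.4, 283.9 and 288.4 TPM in young TOM+ cDC2, 118.6, 232.7 and 291.5 TPM in TOM- DC2 and 670.1, 473.2 and 288.4 TPM in adults. Adult library 95 lay level with the highest young libraries, and both comparisons passed (log2FC -1.15 ± 0.39 and -1.31 ± 0.39, padj = 0.033 and 0.020). *Cd69*, whose product removes S1PR1 from the surface, did not pass (18.7 to 72.2 TPM in young and 56.8 to 77.6 TPM in adult libraries).

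Other receptors that place cells in the spleen differed from adults as well. Of 6, 4 passed as lower and 1 as higher in young TOM+ cDC2, beside 19.5% and 21.0% of all tested genes. In TOM- DC2, 4 passed as lower and 2 as higher, beside 16.9% and 19.4%. *Ccr7*, which leads cells to the T cell zone, measured 287.1 to 322.4 TPM in young TOM+ cDC2, 365.4 to 503.8 TPM in TOM- DC2 and 1493 to 2328 TPM in adults (log2FC -2.66 ± 0.17 and -2.23 ± 0.17, padj = 5.2e-07 and 2.2e-06). *Cxcr5*, which leads cells to follicles, was at 0.58 to 0.74, 0.94 to 1.16 and 1.52 to 3.77 TPM (-2.06 ± 0.32 and -1.43 ± 0.31, padj = 0.00028 and 0.0030). *Cxcr4* and *P2ry10* passed as lower, and *Cnr2* as higher, in both young groups. *Gpr174* had 12, 4 and 4 counts in TOM- DC2, with the 12 in library 81, and 0 in each adult library. Its mean CPM in TOM- DC2 was 1.67-fold a floor of 3 counts per adult library, which does not hold for each library. *Gpr174* did not pass without the young libraries 81, while the other 5 did.

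**Figure D5:**
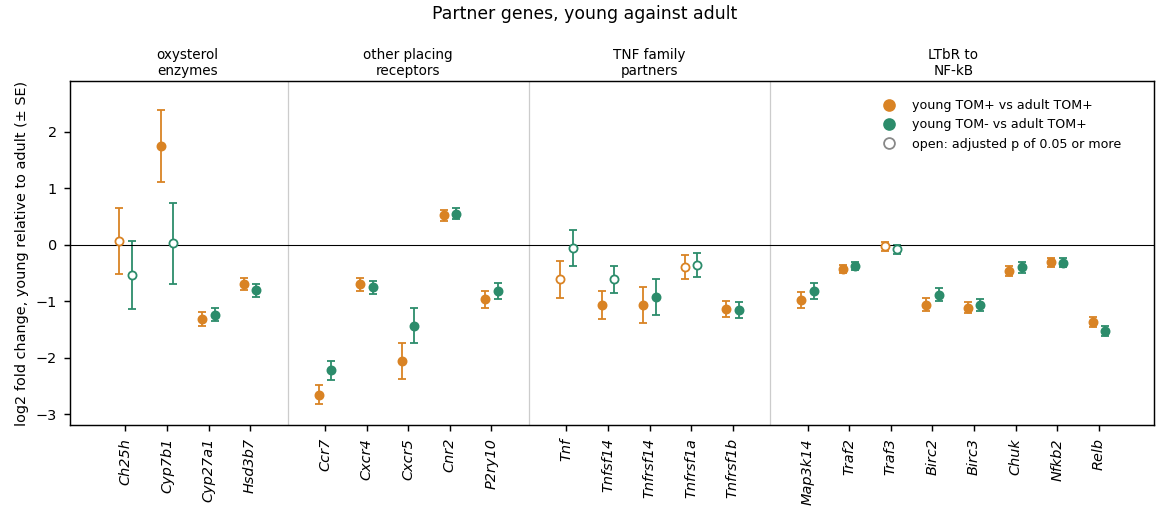
Log2 fold change (young relative to adult, ± standard error) of partner genes, grouped as enzymes of oxysterol ligands, other receptors for placement in the spleen, TNF family partners and the LTbR pathway to NF-kB, for young TOM+ cDC2 and young TOM- DC2. Filled points passed an adjusted p of 0.05. Gpr174, at 0 counts in adults, is not drawn, and Ccr7 is lowest at -2.66 and -2.23.

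Of 15 G protein signalling genes that act below the receptors, 5 passed as higher and 5 as lower in young TOM+ cDC2 than in adults, beside 21.0% and 19.5% of all tested genes, with a median log2FC of 0.11 (all tested genes, 0.05). In TOM- DC2, 4 passed as higher and 5 as lower, beside 19.4% and 16.9%. *Rgs1*, a regulator that shortens Gαi signals from chemoattractant receptors, was lower in both (-1.69 ± 0.31 and -1.65 ± 0.31, padj = 0.00097 and 0.0013), and *Grk5*, a receptor kinase, was called in TOM+ cDC2 (-1.17 ± 0.18, padj = 0.00025). Without the young libraries 81 the counts were 3 higher and 5 lower in each young group. The share that was higher thus lay near that of all genes in the fit to all 9 libraries. The share of all genes without libraries 81 is not given here.

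Most genes of ESAM-high cDC2 were lower in young cells. Of 8, 6 passed as lower in each young group than in adults, beside 19.5% of all tested genes for TOM+ cDC2 and 16.9% for TOM- DC2 (median log2FC -0.96 and -0.81, all tested genes 0.05 and 0.07). *Esam* measured 27.0, 15.5 and 14.4 TPM in young TOM+ cDC2, 37.9, 23.2 and 24.0 TPM in TOM- DC2 and 90.7, 76.8 and 72.6 TPM in adults (-2.21 ± 0.21 and -1.67 ± 0.20, padj = 7.2e-06 and 5.8e-05). *Dtx1*, a Notch target, and *Clec4a4*, which encodes DCIR2, were also called in both comparisons, and *Cd4* in young TOM+ cDC2 (-1.01 ± 0.13, padj = 5.8e-05). None of the 8 passed between the young groups without pairing. Within pairs of one number *Esam* was 1.40- to 1.67-fold and *Dtx1* 1.67- to 1.94-fold higher in TOM- DC2. Both passed with the replicate block (log2FC -0.56 ± 0.11 and -0.82 ± 0.07 for TOM+ cDC2 relative to TOM- DC2, padj = 0.012 and 2.6e-05), and also without the young libraries 81. The 5 genes of mature migratory DC, *Ccr7* among them, summed to 457.9 to 495.7 TPM, 502.9 to 654.1 TPM and 1714 to 2622 TPM in the 3 groups, most of it *Ccr7*. In young TOM+ cDC2, *Ccr7* and *Cacnb3* passed as lower than in adults, beside 19.5% of all tested genes, and *Fscn1* and *Ccl22* did not pass. *Ccl17* passed there as higher at a low level (2.33 to 6.26 against 0.22 to 0.87 TPM, log2FC 2.91 ± 0.87, padj = 0.018), beside 21.0%. In TOM- DC2, *Ccr7*, *Fscn1* and *Cacnb3* passed as lower than in adults, beside 16.9% of all tested genes. Their part in the *Gpr183*, *Ltb* and *Relb* differences was not tested.

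The genes whose pattern over the 9 libraries was most like each well-counted member were named by Pearson's r of log2(CPM + 1), where CPM is the count scaled to library size, over 10111 other genes. These r are descriptions over libraries that fall into 3 groups. *Gpr183* was closest to *Fam96b* (r = 0.994), *Ndel1* (0.993) and *Slc3a2* (0.991), *Ltb* to *Gpr4* (0.986), *Cd7* (0.982) and *Slc6a12* (0.981), and *Ltbr* to *Tmem222* (0.989), *Tnip3* (0.987) and *Naa40* (0.986). *Lta* was closest to *Siae* (0.955), *Wls* (0.941) and *Osbpl3* (0.938). *Cd7* measured 228.0, 408.1 and 858.8 TPM on average in young TOM+ cDC2, TOM- DC2 and adults, the order seen for *Ltb*. *Wls* measured 4.68, 14.2 and 10.7 TPM and, like *Lta*, was lowest in young TOM+ cDC2. Among members, r was 0.851 for *Ltb* and *Gpr183*, 0.744 for *Ltb* and *Lta*, and -0.874 for *Ltb* and *Ltbr*.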

How the data were processed

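RNA of sorted cells was copied with SMART-seq v4 chemistry. The authors aligned reads to mm10 with STAR, whose deposited counts per gene (unstranded column, no normalization) were tested here, and ran RSEM, whose deposited TPM gave the levels. RSEM's deposited expected counts, rounded, served as an alternative, and the FPKM the authors deposited from RSEM were not used. Tool versions are not given in the sources used here. Reads assigned to no gene, 26.1% to 31.6% per library, were left out.

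Genes averaging 1 count or more were tested with edgeR 4.0.16 in R 4.3.3 (quasi-likelihood, TMM, 9 libraries in 3 groups, no block), with Benjamini-Hochberg adjustment. P-values measure the spread between pools or animals as labelled. DESeq2 1.42.0 and limma 3.58.1 were alternatives, and all 3 were tested on simulated data. No libraries were copies. Floors and counts cover counting error only. Young libraries of one number deviated together (r of 0.52 to 0.76 over 10112 genes), which pairs them, and the adults share only a number. The alternatives were fixed at the start, apart from the fits without both young libraries 81, the blocked fits without a pair, the list counts with the block and the ratios from STAR counts, which were chosen after seeing the data.

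Members and lists were chosen with earlier results of these data known. The text names all members, list genes called in a comparison or otherwise the most abundant of a list, and the 3 genes most like each member with an average count of at least 50. Genes outside this rule (*Tnf*, markers and genes that make up a count of 5 or fewer or complete a pathway step) were named after their values were seen. Of 140 list genes, 139 matched, 4 by older symbols through RefSeq. A marker first listed for ILC3 is not reported here. Positions are from GENCODE M21.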

Additional observations from a re-analysis of the deposited data

How the results depend on the processing

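For *Gpr183*, *S1pr4*, *Ltb* and *Ltbr* against adults, and *Lta* in young TOM+ cDC2 against adults, direction and side of the padj threshold held in all alternatives run. The log2FC of some calls fell short of 1 in an alternative. It came to 0.91 for *S1pr4* in TOM- DC2, and to -0.95 for *Lta* and -0.98 for *Ltb* in young TOM+ cDC2, each against adults. With limma on log2(TPM + 1), 113, 1153 and 1007 genes were called in the 3 comparisons (170, 1853 and 1631 otherwise), and 1 and 0 members in the comparisons of young TOM+ cDC2 and TOM- DC2 with adults. This setting changes the tool and the values tested together, and the cause was not tested. With a pseudocount of 0.1, 117, 1653 and 1452 genes were called, with 2 members for young TOM+ cDC2 and 1 for TOM- DC2 against adults. *Lta* between TOM- DC2 and adults, a difference that never passed, turned positive with limma (0.15 with a pseudocount of 1 and 0.16 with 0.1) and with the replicate block (0.19). Leaving out 1 library gave -0.16 to 0.22 for this value, -2.04 to 0.11 for *S1pr1* between the young groups, -0.52 to 1.78 for *S1pr1* in young TOM+ cDC2 against adults, and -0.04 to 0.15 for *Ltbr* between the young groups, none of which passed. The reversed values were 0.0017, 0.055 and 0.22 (*Lta*), 0.019 and 0.11 (*S1pr1*), and -0.0042 and -0.038 (*Ltbr*). Between the young groups it gave -1.34 to -1.09 for *Lta* and -0.57 to -0.47 for *Ltb*, 0 to 1 members called and 126 to 176 genes called. With the replicate block, which pairs the young libraries, *Lta* and *Ltb* passed between the young groups (padj = 0.0063 and 0.0024). Against adults, the block also tied adult libraries to young ones of the same number, although they share only that number. The adult library without such a partner had its own term, so it added nothing to those differences, among them the 0.19 above. The block changed no call of a member. Between the young groups it also passed *Esam*, *Dtx1*, *C1qc* and *Vcam1* among the list genes. With the block and without a young pair, *Lta* and the members called were at -1.02 and 0 without pair 91 (padj = 0.11) and at -1.28 and 0 without pair 92 (padj = 0.078), where *Ltb* was at -0.46 (padj = 0.077) and *S1pr1* at 0.062. These fits have fewer samples. By Spearman's rho, 0 of the 3 genes named for *Gpr183* and for *Lta*, and 1 of those for *Ltb* and for *Ltbr*, remained. Depth limits *S1pr1* and *S1pr3*.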
